A study of Mus musculus with 3 samples.

Results

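Tcf3, Tcf4, Tcf12 and Tcfap4 are 4 genes of basic helix-loop-helix (bHLH) transcription factors. They were taken by name from lists of the places where Smad3 and JMJD3 were found on chromatin, with every peak that named 1 of them as its closest gene and every peak centred within 50 kb of their transcription start sites (TSS). Peaks of a list that lay at most 10 bp apart were joined into a region. This gave 96 of 70562 Smad3 regions and 60 of 45018 JMJD3 regions. The genes were chosen with their peaks known, so their values are a description and carry no test.

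The study mapped Smad3 and JMJD3 by chromatin immunoprecipitation and sequencing (ChIP-seq) in cultured mouse neural stem cells. The cells came from wild type cerebral cortex at E12.5, grew in EGF and FGF, and received TGFb at 5 ng/ml, for 30 minutes before the Smad3 and JMJD3 immunoprecipitations. There was 1 library per antibody and 1 of input DNA, which was not analysed here. The labels do not say whether 1 embryo or several gave the cells. No value below has a replicate error, and with every library treated, none shows an effect of TGFb. The lists give positions on build mm9 without heights or reads, so depth is unknown and the width of a region stands in for its strength.

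As background, Tcf3 (E2A), Tcf4 (E2-2) and Tcf12 (HEB) encode the class I bHLH factors called E proteins, which are made in many tissues. An E protein binds the E-box, a short DNA element, as a dimer with itself, with another E protein or with a tissue-restricted class II factor such as a proneural protein. Id proteins, which lack the basic DNA-binding part, take up E proteins into dimers that do not bind DNA. Tcfap4 (AP-4, now Tfap4) belongs to the bHLH leucine zipper group, forms homodimers on E-boxes and is not an E protein. Smad3 is phosphorylated by TGF-beta receptors and then acts in the nucleus as a transcription factor. JMJD3 removes methyl groups from lysine 27 of histone H3.

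A peak list shows binding and not expression. Peaks of both factors lay within 1 kb of the TSS at 9 of 10 neural stem cell markers, Prom1 being the exception. Both were also listed at 2 of 6 neuronal markers (Tubb3 and Map2), 1 of 4 endothelial markers (Kdr), 0 of 4 oligodendrocyte markers and 0 of 4 markers of microglia and blood. Over all 20953 coding genes the share with both was 41.9%, and these short lists were not tested.

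Both factors were listed at the starts of the E protein genes, and at Tcfap4 the JMJD3 region lay to the side of the start. A peak of each factor was centred within 1 kb of a TSS of Tcf3, Tcf4 and Tcf12, that is at 3 of 4 genes, where 41.9% of 20953 coding genes had both. Tcfap4 had Smad3 alone by this measure, as its JMJD3 peak nearest to the TSS was centred 1024 bp downstream, just past the limit. Smad3 was thus within 1 kb at 4 of 4 genes (55.0% of all coding genes) and JMJD3 at 3 of 4 (43.3% of all). Since the genes were picked from these lists, nothing is read from these counts. The peaks nearest the limit were centred at 872 bp (Smad3, Tcf3) and 898 bp (Smad3, Tcf4) inside it and at 1024 bp (JMJD3, Tcfap4), 1059 bp (Smad3, Tcfap4) and 1200 bp (JMJD3, Tcf12) outside it.

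At Tcf3 (Entrez 21423), 1 compact region of each factor covered the start. The files place this gene on the minus strand of chromosome 10 from 79871909 to 79896398, a span of 24.5 kb. The Smad3 region ran from 79895761 to 79897220 (1460 bp) and the JMJD3 region from 79895721 to 79897330 (1610 bp), so all of the Smad3 bases lay inside the JMJD3 region. Among coding genes with a promoter region of the factor, 92.7% had a Smad3 region and 94.0% a JMJD3 region no wider than these. The JMJD3 region was 1 undivided peak, the 7th widest single peak at any coding promoter, while the Smad3 region was made of 3 peaks of at most 621 bp within 1 kb of the TSS. A second Smad3 region, of 251 bp, was centred 0.9 kb downstream with no JMJD3, and a second JMJD3 region, of 411 bp, was centred 2.8 kb upstream with no Smad3.

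Tcf12 (Entrez 21406) had 2 paired regions at its start, offset from each other. The gene lies on the minus strand of chromosome 9 from 71692058 to 71959626 and spans 267.6 kb. Over the TSS, Smad3 covered 71959531 to 71960390 (860 bp) and JMJD3 71959471 to 71960170 (700 bp), with 640 bp in common. Just downstream, 641 bp of Smad3 and 550 bp of JMJD3 shared 210 bp. JMJD3 reached farther into the gene here, to 1.5 kb from the TSS, than Smad3, which reached 1.1 kb.

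The 250 bases upstream of a RefSeq start are shown for Tcf3 and Tcf12, the members with an entry in the RefSeq promoter table (build GRCm38.p6), because both factors were listed at a start of each gene. The table does not name transcripts, and whether its starts are those used in the peak lists was not settled. Capitals mark matches to the E-box CANNTG, the element that E proteins and AP-4 bind. Both windows are written 5′ to 3′ on the minus strand, at chr10:80433636-80433885 for Tcf3 and at chr9:72111820-72112069, the most upstream of 3 listed starts, for Tcf12. Peaks on mm9 were not placed on this build.
Tcf3: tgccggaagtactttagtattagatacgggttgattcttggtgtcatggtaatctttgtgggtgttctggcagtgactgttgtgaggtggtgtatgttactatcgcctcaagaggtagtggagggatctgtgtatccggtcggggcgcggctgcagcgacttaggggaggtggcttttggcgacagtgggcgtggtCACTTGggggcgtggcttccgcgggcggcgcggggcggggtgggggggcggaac
Tcf12: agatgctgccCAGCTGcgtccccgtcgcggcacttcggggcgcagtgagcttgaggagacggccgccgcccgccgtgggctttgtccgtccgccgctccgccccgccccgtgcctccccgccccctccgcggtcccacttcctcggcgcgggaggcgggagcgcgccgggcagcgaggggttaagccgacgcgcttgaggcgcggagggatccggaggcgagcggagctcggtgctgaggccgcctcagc
Each window held 1 E-box. In Tcf3 it was CACTTG, from 54 to 49 bases before the start, and in Tcf12 it was CAGCTG, from 240 to 235 bases before it. Of 32851 promoter windows of this length, 66.2% held CANNTG on either strand. The forms CAGCTG and CAGGTG, which also match CANNTG, occurred in 13.0% and 17.2% of windows. CAGAC, a short form of the Smad binding element, was in neither window on either strand and in 42.2% of all. These are matches of letters and not sites shown to be bound.

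Tcf4 (Entrez 21413) had regions of both factors centred within 1 kb of the first of its starts and of Smad3 alone within 1 kb of the second. The gene lies on the plus strand of chromosome 18, and the files give it a start at 69504145 for isoform a and at 69505374 for isoform b, 1229 bp apart. At the isoform a TSS the Smad3 region was 840 bp (69503531 to 69504370) and lay wholly inside a JMJD3 region of 1040 bp (69503451 to 69504490). From the isoform b TSS onward, 5 separate Smad3 regions of 270 to 740 bp were centred between 1.5 and 4.7 kb from the isoform a TSS. None of these 5 met JMJD3, where 55.0% of all Smad3 regions did, and 0 JMJD3 regions were centred there. The next JMJD3 region downstream was 31.5 kb from the isoform a TSS, and it did not overlap Smad3 either.

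At Tcfap4 (Entrez 83383) the Smad3 region was among the widest of all promoters and JMJD3 sat on its downstream end. The gene lies on the minus strand of chromosome 16 from 4544660 to 4559720, a span of 15.1 kb. The Smad3 region ran from 4557911 to 4561060, or from 1.3 kb upstream to 1.8 kb downstream of the TSS. At 3150 bp it ranked 18th of 11524 coding genes with a Smad3 promoter region, whose median was 760 bp. It was built of 10 peaks that each lay 10 bp from the next. Without joining, the widest Smad3 peak within 1 kb of this TSS was 371 bp and ranked 9223rd, and with joining of peaks up to 100 bp apart the width was the same and the rank 58th. The rank therefore rests on reading this run of peaks as 1 region.

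The JMJD3 region of Tcfap4 ran from 4557981 to 4558950 (970 bp), between 0.8 and 1.7 kb downstream of the TSS, and left the TSS itself uncovered. It took up 30.8% of the bases of the Smad3 region. The same share was 74.4% at Tcf12 and 100% at both Tcf3 and the isoform a start of Tcf4. Its median over all coding genes with a Smad3 promoter region was 84.9%, and at 25.0% of them JMJD3 lay on all of the region. Of the 23 coding genes whose Smad3 promoter region was at least 3000 bp wide, Tcfap4 had the lowest share, the median being 77.6%, and it was the 1 gene among them with no JMJD3 peak centred within 1 kb of the TSS. The limit of 3000 bp was chosen after the width at Tcfap4 was seen, and these 23 genes were taken with peaks at most 10 bp apart joined. Below this limit the share could be lower, as at Id2 (28.0% of 2400 bp). Across all coding genes, 2744 had Smad3 and no JMJD3 peak within 1 kb, and at 289 of these, Tcfap4 included, JMJD3 still overlapped the Smad3 promoter region.

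**Figure D1:**
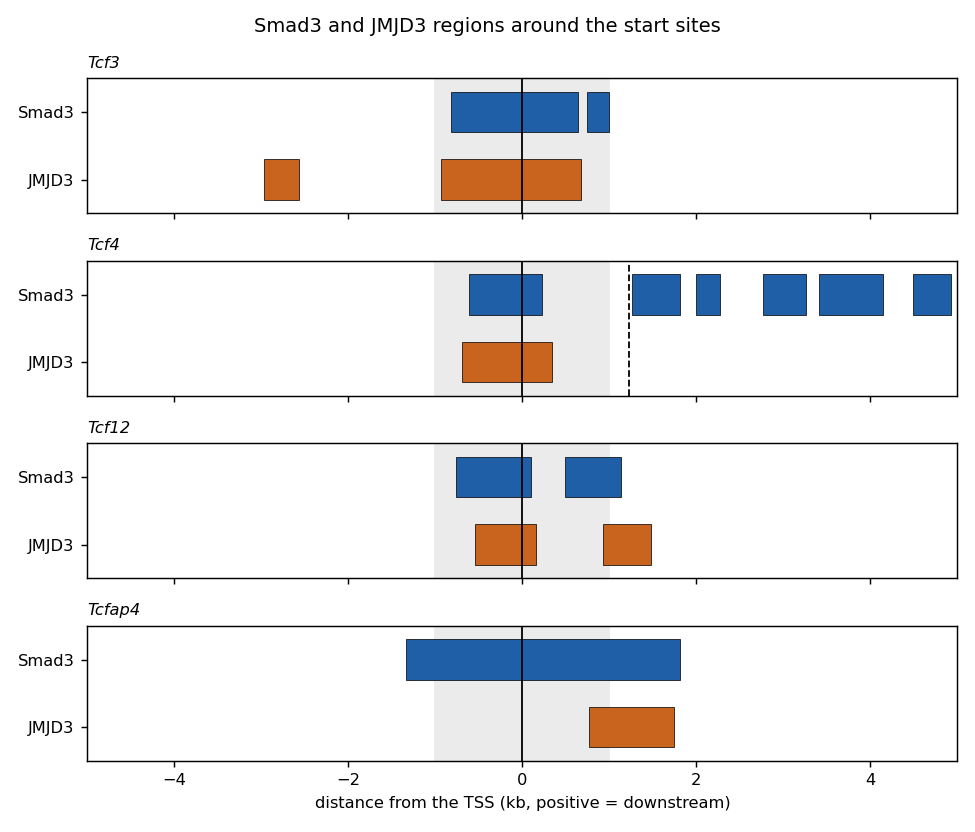
Regions of Smad3 (blue, upper row) and JMJD3 (orange, lower row) within 5 kb of the TSS of each gene, drawn to scale against distance from the TSS in kb. The solid line is the TSS, the dashed line the isoform b TSS of Tcf4, and the grey band 1 kb to either side. Both factors cover the TSS of Tcf3, Tcf4 and Tcf12, while at Tcfap4 JMJD3 (970 bp) covers only the downstream end of a Smad3 region of 3150 bp.

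**Figure D2:**
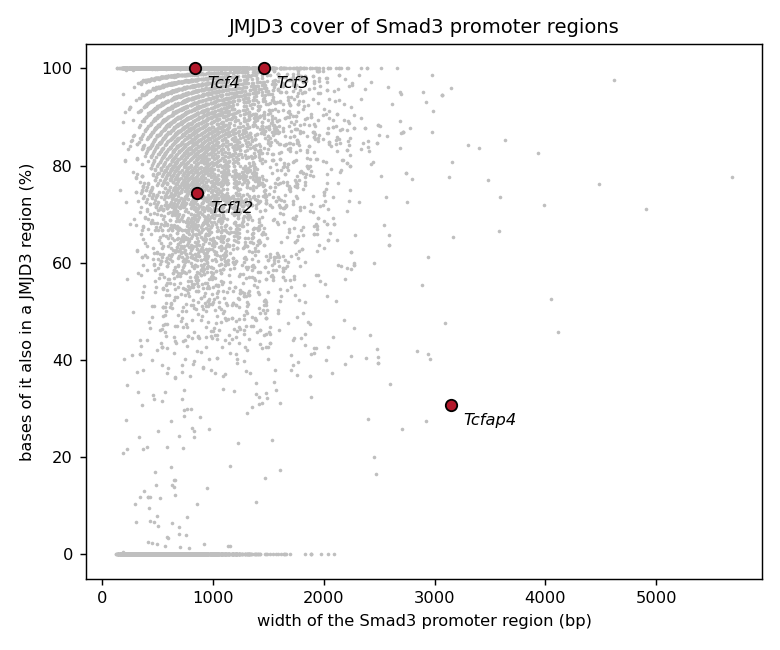
Width of the widest Smad3 promoter region (bp) against the percent of its bases that also lie in a JMJD3 region, 1 grey point for each of 11524 coding genes and the 4 genes in red. Tcfap4 lies far to the right and low, at 3150 bp and 30.8%, and Tcf3 and Tcf4 lie at 100%.

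The 4 genes also differed in how many regions named them, start regions included. Tcf4 was named by 57 Smad3 and 31 JMJD3 regions, Tcf12 by 14 and 11, Tcfap4 by 4 and 2, and Tcf3 by 2 and 2. The median coding gene named in either list had 2 of each. Tcf4 ranked 12th of 15353 genes by Smad3 regions and 20th by JMJD3 regions. Tcf12 reached 94.9% of genes for Smad3 and 96.6% for JMJD3, counting genes with as many regions or fewer. With 1 library per factor, neighbours in this order cannot be separated by replicate error.

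A peak is credited to the closest TSS alone, so these numbers also depend on how near the neighbouring genes are. Within 50 kb of the TSS, regions of any name numbered 15 Smad3 and 10 JMJD3 at Tcfap4, 10 and 8 at Tcf3, 8 and 3 at Tcf4 and 6 and 5 at Tcf12, where the median gene had 5 and 3. By this count the order turned round, with Tcfap4 and Tcf3 above Tcf4 and Tcf12. Tcf3 and Tcfap4 lie among close neighbours, which took 8 of 10 Smad3 and 6 of 8 JMJD3 regions of the Tcf3 locus and 11 of 15 and 8 of 10 of the Tcfap4 locus. No region within 50 kb of Tcf4 or Tcf12 named another gene. The last peaks inside the 50 kb limit were centred at 37.6 to 48.3 kb, and the first ones outside it at 54.3 to 65.2 kb.

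**Figure D3:**
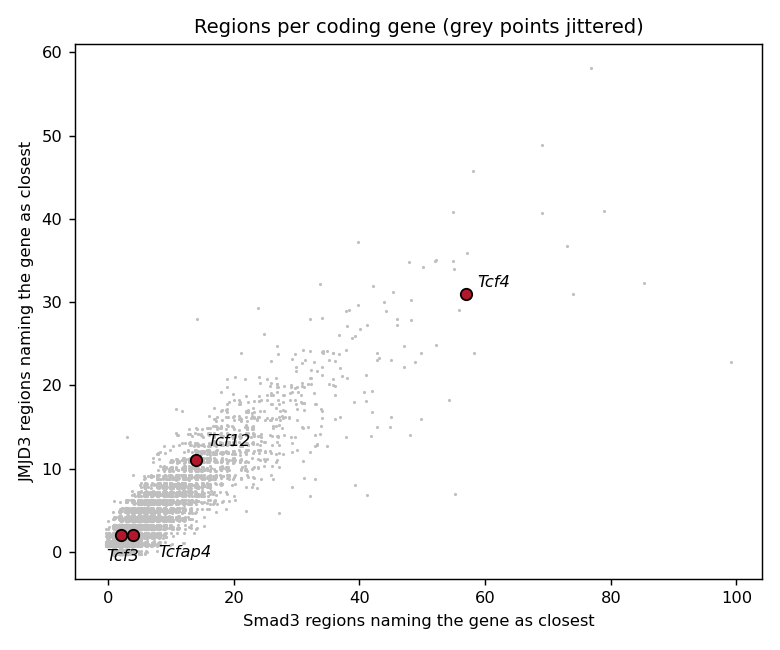
Number of Smad3 regions (horizontal) against JMJD3 regions (vertical) that name a gene as closest, for 15353 coding genes (grey, jittered) and the 4 genes (red). Tcf4 lies among the highest at 57 and 31, Tcf12 at 14 and 11, and Tcf3 and Tcfap4 lie in the dense corner of the plot.

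In the Tcf4 locus, most binding lay deep inside the gene. Of 57 Smad3 regions, 46 (80.7%) and of 31 JMJD3 regions, 22 (71.0%) were centred in the gene and more than 1 kb from its starts, where 29.4% of all Smad3 and 28.2% of all JMJD3 regions lay inside their closest gene in this way. The shares over all regions pool genes of every length and were not matched to the long span of Tcf4. JMJD3 was found on 18 of these 46 Smad3 regions and Smad3 on 17 of the 22 JMJD3 regions, where the shares over all such regions were 50.9% and 78.6%. Counted by coordinates over the whole span of 343.5 kb, the gene held 16.6 Smad3 and 7.57 JMJD3 regions per 100 kb. Of 2018 coding genes spanning at least 100 kb, 39 had a higher Smad3 and 87 a higher JMJD3 density, and the medians were 2.71 and 1.91. The Tcf12 gene, at 4.48 and 3.74 per 100 kb, was above both medians. These densities count regions near the gene ends that name a neighbour, 9 Smad3 and 4 JMJD3 regions credited to Ccdc68 in Tcf4, and 6 and 5 credited to Cgnl1 in Tcf12.

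Smad3 regions of the Tcf4 gene came in runs. Beside the 5 regions just past the isoform a start, a longer run lay 154.2 to 178.1 kb from the isoform a TSS, with 13 Smad3 regions of 320 to 831 bp, of which 4 overlapped JMJD3, and 3 JMJD3 regions. Of all stretches of 30 kb that begin at a Smad3 region, 1.07% held as many, the median being 3. The Tcf4 stretch was the fullest of its locus, and it is set here against stretches not picked in this way. Between 190.7 and 288.0 kb there were 21 Smad3 regions, 10 of them with JMJD3, and 13 JMJD3 regions. This tract held the widest region of the locus, a Smad3 region of 2431 bp at 69750941 to 69753371, 248.0 kb into the gene, with JMJD3 on 2351 bp of it in 2 regions of 1090 and 1420 bp. The next widest, of 1890 bp at 69722041 to 69723930, shared 1420 bp with JMJD3. The tracts were drawn after the values were seen. They leave out 9 Smad3 and 4 JMJD3 regions farther into the gene, 292.3 to 342.5 kb from the isoform a TSS, which were credited to Ccdc68.

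Upstream of Tcf4 both factors were listed together far from the gene. No region naming Tcf4 lay between the start region and 147.7 kb upstream, and from there to 400.6 kb upstream there were 8 Smad3 and 8 JMJD3 regions. Of each, 6 overlapped the other factor, where 55.9% of all Smad3 and 75.6% of all JMJD3 regions more than 50 kb from any TSS did so. The widest pair was centred 367.6 kb upstream for Smad3 (1531 bp, 69135801 to 69137331) and 367.9 kb for JMJD3 (1570 bp, 69135481 to 69137050), with 1250 bp in common. A further pair, 1400 bp of Smad3 and 1260 bp of JMJD3, shared 1210 bp at 214.1 kb. Closest-gene naming is the link of these regions to Tcf4, and whether they act on it was not tested.

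In the Tcf12 locus both factors were listed upstream of the promoter and inside the gene. All 5 JMJD3 regions upstream of the promoter overlapped Smad3, and 5 of 7 Smad3 regions there overlapped JMJD3, where 81.7% of all JMJD3 and 55.0% of all Smad3 regions overlapped the other factor. Over the whole locus 9 of 11 JMJD3 regions (81.8%, exact Clopper-Pearson 95% interval 48.2 to 97.7) overlapped Smad3, an interval that holds the share of all JMJD3 regions. The 5 shared Smad3 regions were centred 21.4, 43.8, 54.3, 78.2 and 80.5 kb upstream. The first, 1321 bp of Smad3 (71980391 to 71981711) around 871 bp of JMJD3, was wider than the region at the TSS, and the second had 910 bp of Smad3 and 940 bp of JMJD3 with 890 bp in common. Among regions that named Tcf12 and lay in the gene beyond 1 kb of the TSS, 2 of 5 Smad3 regions overlapped JMJD3. Of the JMJD3 regions placed in this way, 3 of 5 overlapped Smad3. Over all regions inside their closest gene in this way, the shares were 50.9% and 78.6%. The 2 shared Smad3 regions naming Tcf12 were centred 152.0 kb (1050 bp of Smad3, 1020 bp of JMJD3) and 169.9 kb (531 and 560 bp) into the gene. At 25.8 and 27.5 kb, 540 bp of Smad3 and 220 bp of JMJD3 lay near each other without touching. These counts leave out 6 Smad3 and 5 JMJD3 regions farther into the gene, which were credited to Cgnl1. Of those, 4 Smad3 and 4 JMJD3 regions overlapped the other factor.

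Around Tcf3 most regions were credited to neighbours. The widest of the locus was at Mbd3, which encodes a subunit of the NuRD chromatin remodelling complex, with 1990 bp of Smad3 and 2390 bp of JMJD3 and 1980 bp of the Smad3 region covered. The start of Tcf3 followed for Smad3 (1460 bp). Mex3d, an RNA-binding protein gene, had 1190 bp and 1630 bp. Uqcr11, a gene of respiratory complex III, had 750 bp and 660 bp, and a region closest to Onecut3, a homeobox gene, had 770 bp and 910 bp. Within the Tcf3 gene and past its start regions there were 0 Smad3 regions and 1 JMJD3 region, of 430 bp, which was credited to Uqcr11.

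Around Tcfap4, all 10 JMJD3 regions of the locus overlapped Smad3, while 9 of 15 Smad3 regions overlapped JMJD3, against 55.0% of all Smad3 regions. The exact Clopper-Pearson 95% interval of the first share, 69.2 to 100%, holds the 81.7% of all JMJD3 regions. Past the 3′ end of the gene, 17.8 kb from the TSS, a Smad3 region of 621 bp lay inside a JMJD3 region of 810 bp. Glis2, a zinc finger gene upstream, was closest to 9 Smad3 and 6 JMJD3 regions, among them a pair of 991 and 1270 bp. Srl, the sarcalumenin gene, took 2 of each. The Tcfap4 gene itself had, apart from the start region, 1 Smad3 region of 330 bp at 8.5 kb with no JMJD3.

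**Figure D4:**
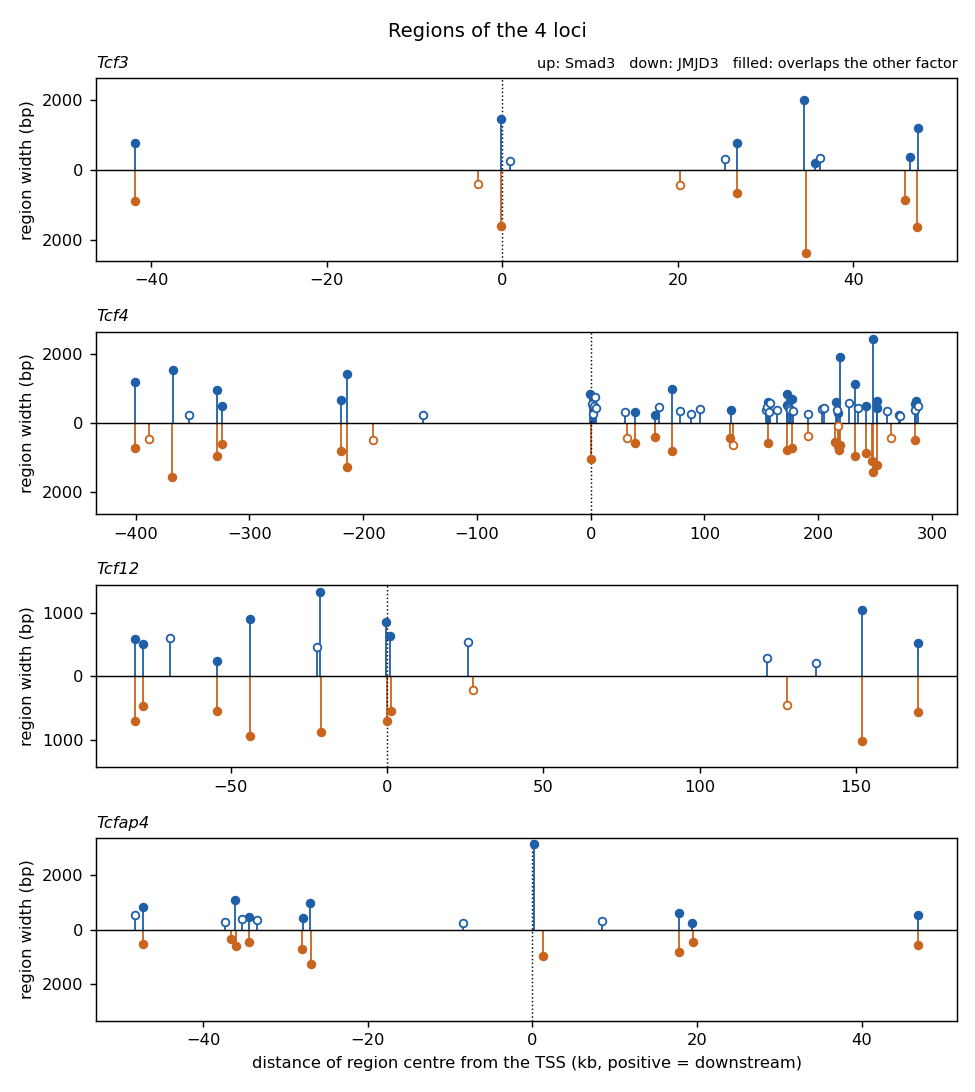
Every region of the 4 loci by distance of its centre from the TSS (kb, horizontal) and by width (bp, vertical), with Smad3 drawn upward in blue and JMJD3 downward in orange. Filled points overlap the other factor and open points do not. In Tcf4 the regions crowd between 150 and 290 kb and many Smad3 points are open (32 of 57), in Tcf12 5 of 7 upstream Smad3 points are filled, and at Tcfap4 all JMJD3 points are filled.

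Over the 4 loci the share of regions met by the other factor was close to that of the whole lists. Of 60 JMJD3 regions, 49 (81.7%, exact Clopper-Pearson 95% interval 69.6 to 90.5) overlapped Smad3 by at least 1 bp, and 81.7% of all JMJD3 regions did so. Of 96 Smad3 regions, 50 (52.1%, 41.6 to 62.4) overlapped JMJD3, against 55.0% of all. Intervals here cover counting error only, and regions of 1 locus are not independent. Between the loci the Smad3 share ran from 43.9% at Tcf4 (30.7 to 57.6) through 60.0% at Tcfap4 (32.3 to 83.7) and 64.3% at Tcf12 (35.1 to 87.2) to 70.0% at Tcf3 (34.8 to 93.3). All 4 intervals overlap and hold the value of the whole list.

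By median width, shared Smad3 regions were the wider ones in each locus, as in the list as a whole. A wider region has more bases that can meet the other factor, and this was not corrected for. In Tcf4 the median Smad3 width was 640 bp with JMJD3 and 370 bp without, in Tcf12 641 and 460 bp, in Tcfap4 621 and 350 bp, and in Tcf3 770 and 310 bp. Over all Smad3 regions the medians were 600 and 351 bp. For JMJD3 the medians with and without Smad3 were 780 and 440 bp in Tcf4 and 700 and 340 bp in Tcf12. In Tcf3 they were 1260 and 420.5 bp, and over all JMJD3 regions 710 and 450 bp. In the Tcfap4 locus no JMJD3 region was without Smad3.

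A profile of 4 measures was used to find the genes most like each member in these 2 libraries. The measures were the numbers of Smad3 and JMJD3 peaks naming the gene and the widths of its widest Smad3 and JMJD3 promoter regions, each as a rank percentile over 15353 coding genes, and likeness was the mean difference over the 4. Tcf4 and Tcf12 were the closest pair among the members, 9.28 points apart, although 445 genes were closer to Tcf4 than Tcf12 was. The other 5 pairs were 26.0 to 36.4 points apart.

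Among the nearest to Tcf4 were Ptprm (1.30 points), a receptor phosphatase gene, and Ntn1 (1.48), which encodes the guidance cue netrin. The nearest to Tcf12 were Rpl14 (0.455 points), a ribosomal protein gene, S1pr1 (1.42), a lipid receptor gene, and Rreb1 (1.44), a zinc finger gene. For Tcf3 they were Dcaf11, the chaperone gene Dnajb1 and Rprd2, at 0.126, 0.177 and 0.401 points. Tcfap4 had no neighbour as near, the closest being Fhl4 (2.30 points, Smad3 region of 1430 bp), the histone gene Hist1h4h (2.59, 2090 bp) and Hs2st1 (2.87, 1410 bp), each with no JMJD3 promoter peak. In this profile the JMJD3 promoter width of Tcfap4 was 0, because its nearest JMJD3 peak was centred at 1024 bp, past the 1 kb limit. Its Smad3 width of 3150 bp rests on joining peaks. Both values enter its distances to these genes and to the other members.

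Genes of other proteins that meet E proteins were described in the same way. Of 40 class II bHLH genes, 13 (32.5%) had Smad3 and 10 (25.0%) JMJD3 within 1 kb of the TSS, and the 10 had both, against 41.9% of all coding genes with both. Olig2, an oligodendrocyte lineage factor, had 1440 bp of Smad3 and 1150 bp of JMJD3, and Tcf15 had 420 and 500 bp. Olig1 (830 bp) and Atoh8 (611 bp) had Smad3 alone. By comparison all 4 Id genes had both. The widest Smad3 region lay at Id1, with 5680 bp and 2451 bp of JMJD3, followed by Id3 (4111 and 1120 bp) and Id2 (2400 and 671 bp), while Id4 had 630 and 791 bp. JMJD3 covered 77.7%, 45.7%, 28.0% and 6.51% of the Smad3 promoter regions of Id1, Id3, Id2 and Id4, the last 2 values being below that of Tcfap4 (30.8%).

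Cofactors of E proteins had both factors at 8 of 11 genes (72.7%), among them the acetyltransferase gene Ep300 (1820 bp of Smad3 and 2060 bp of JMJD3), Lmo4 (1180 and 1130 bp) and Ldb1 (2040 and 871 bp). Of all coding genes 41.9% had both. Of coding genes named in either list, as these 11 and the 21 genes below were, 57.2% had both. Lmo1 had Smad3 alone, with 440 bp. Of 21 bHLH leucine zipper genes, the structural group of Tcfap4, 19 (90.5%) had both, including the Max partners Mnt (1720 and 1990 bp), Mxd3 (1700 and 1710 bp) and Myc (1941 and 1250 bp), and Mlx had Smad3 alone with 730 bp. JMJD3 covered all of the Smad3 promoter regions of Mnt and Mxd3, 66.0% of that of Myc and 40.9% of that of Srebf2 (2250 bp). It covered 0.0% of those of Mitf (840 bp) and Mycn (720 bp), although both genes had a JMJD3 promoter peak, so shares below that of Tcfap4 (30.8%) were found within its structural group. The median numbers of regions naming a gene were 2 Smad3 and 1 JMJD3 in the class II list, 6 to 19 and 4 to 13 (the range of 4) for Id genes, 6 and 4 for cofactors and 5 and 2 for leucine zipper genes. These lists are described and not tested.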

How the data were processed

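The authors deposited 1 peak list per antibody, with positions in bp, the closest RefSeq TSS and its gene. The submitters' processing notes name CASAVA, Bowtie 0.12.7, MACS 1.4 and build mm9, and do not state their roles, the thresholds or the use of the input. The lists hold no counts, scores or p-values, so depth is unknown and no test was run. Regions were made by joining peaks at most 10 bp apart (Python 3.11.15, pandas 2.3.3). Overlap meant at least 1 bp, and a promoter peak was centred within 1 kb of the TSS it names, by the distance in the file. The joining and overlap code was tested on simulated intervals. Coding genes came from a RefSeq table of GRCm38.p6, matched on Entrez ID. It set which genes count as coding and gave names, while gene positions came from the peak lists. Members, lists and rules were chosen with earlier results of these data known. Named genes are the members, the neighbours their regions name, the 3 genes most like each, and from each list up to 3 genes with both factors (highest lower width percentile) and 2 with 1 factor. Some genes that this rule names are not reported here. Prom1, Tubb3, Map2, Kdr, Id4, Srebf2, Mitf, Mycn, Ccdc68 and Cgnl1 were named after their values were seen.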

Additional observations from a re-analysis of the deposited data

How the results depend on the processing

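Under 3 other settings a value moved. Without joining, Smad3 regions in the 4 loci numbered 146 in place of 96. In the wider 50% of each list, 51 Smad3 and 32 JMJD3 regions were left, since narrower ones were dropped by construction. Requiring overlap of 50% of both regions lowered the share of JMJD3 regions with Smad3 from 81.7% to 66.7%, as the stricter rule must lower it or leave it. The share of Smad3 regions with JMJD3 stayed within its interval in all 7 alternatives, from 41.7% to 56.8%. Both factors were listed at 3 genes within 0.5 kb and in the wider regions, and at 4, Tcfap4 included, within 2.5 and 5 kb. A setting added after seeing the data took region widths without joining, which left the JMJD3 promoter widths of Tcf3 and Tcf12 as they were and lowered the others. With 1 library per antibody and no depth, a missing region cannot be told from a weak one.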
